A study of Mus musculus with 9 samples.

Results

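The 10 genes described here are the cardiac muscle genes Myh6, Actc1, Tnnt2, Tnni3, Nppa, Myl4, Myl7, Sln, Csrp3 and Mybpc3, read in RNA of whole mouse lung. They were chosen by name for their role in heart muscle, without a threshold on any measured value. The choice was made with earlier results of these data known, so it was not independent of them. The members are 10 of the 12393 genes that the array names. All 10 were on the array, with 14 probe sets in all, and 9 genes passed the filter on low signal.

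Each group had 3 arrays of lung total RNA from adult FVB/N mice. HO lungs carried 2 alleles of SP-C-hCFTR (SP-C-hCFTR+|+/mCftr+|+), HE lungs carried 1 (SP-C-hCFTR+|-/mCftr+|+), and WT lungs carried none (mCftr+|+). SP-C-hCFTR is a cDNA of normal human CFTR, an epithelial chloride channel, driven by the SP-C promoter, which is active in respiratory epithelial cells. Where a genotype was given, all groups kept both copies of mouse Cftr. The third WT array has no genotype entry, and the description of HO 2 writes a single transgenic allele where its title and genotype entry give 2. The labels do not say whether each array stood for its own mouse. The p-values below therefore reflect the variation between the arrays of a group, part of which may be technical. An array is written below as its genotype and replicate number (HO 1). The replicate numbers 1, 2 and 3 also divide the source names into sets that begin with 3, 9 and 11, with 1 array of each genotype in a set. The labels do not say what a number stands for.

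Cardiac muscle cells contract by sliding myosin thick filaments along actin thin filaments, under the control of calcium that acts on the troponins. In the mouse, heart muscle is not limited to the heart: sleeves of cardiac muscle continue from the left atrium along the walls of the pulmonary veins into the lung. Several of the 10 genes are atrial forms: Myl4 and Myl7 encode the atrial myosin light chains, Sln and Nppa are atrial in the adult mouse, and Myh6 is the main myosin heavy chain of both atrium and ventricle in that animal. In whole-lung RNA, fewer muscle cells and less RNA per muscle cell cannot be told apart.

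Median signal differed little between arrays, at 697 to 742 linear units, and 4.29% to 5.53% of probe sets lay at or under the floor of 25.5 units. The Actb control probe sets gave 3'/5' ratios of 1.07 to 1.39, with 1.35 on HO 1 and 1.22 on HE 1, and those of Gapdh gave 0.768 to 0.885. HO 1 and HE 1, the transgenic arrays of number 1, stood apart in the members' signals, so results that rest on them are also given without them. They were left out because they were high, so a number 1 excess had to shrink, and number 1 is then WT 1 alone, taken to vary like the other arrays. Mouse Sftpc, the animal's own SP-C gene, ran from 55291 to 67718 units on HO arrays and from 55574 to 62777 on HE arrays. On WT arrays it ran from 50229 to 68142 units. The human transgene itself was not checked on these arrays.

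The stretches before the start sites of 4 members are shown. Those of Actc1, Myl7 and Mybpc3 hold the CArG and MEF2 boxes found among the 10 genes, and that of Nppa holds GATAA on both strands. They come from RefSeq on GRCm38.p6, where 9 of the 10 members matched, all but Sln. Each runs 5' to 3' over the 250 bases before the start site: chr2:114052876-114053125 on the minus strand for Actc1, chr11:5898783-5899032 on the minus strand for Myl7, chr4:148000472-148000721 on the plus strand for Nppa and chr2:91117894-91118143 on the plus strand for Mybpc3. Capitals mark the CArG box, the MEF2 box and GATAA (or TTATC, its reverse complement).
Actc1: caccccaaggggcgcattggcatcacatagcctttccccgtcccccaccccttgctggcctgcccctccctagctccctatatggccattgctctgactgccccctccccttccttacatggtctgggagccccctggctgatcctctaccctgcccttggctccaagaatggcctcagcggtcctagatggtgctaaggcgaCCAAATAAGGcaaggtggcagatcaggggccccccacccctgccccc
Myl7: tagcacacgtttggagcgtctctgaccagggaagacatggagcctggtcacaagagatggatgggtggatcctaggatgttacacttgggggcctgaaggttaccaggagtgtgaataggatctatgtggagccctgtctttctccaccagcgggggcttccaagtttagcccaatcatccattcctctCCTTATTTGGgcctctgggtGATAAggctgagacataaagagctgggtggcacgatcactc
Nppa: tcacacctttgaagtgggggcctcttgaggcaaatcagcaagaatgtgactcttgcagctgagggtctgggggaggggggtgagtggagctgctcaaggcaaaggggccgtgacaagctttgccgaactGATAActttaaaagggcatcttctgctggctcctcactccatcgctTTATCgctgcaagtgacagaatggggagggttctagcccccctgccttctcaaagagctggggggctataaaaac
Mybpc3: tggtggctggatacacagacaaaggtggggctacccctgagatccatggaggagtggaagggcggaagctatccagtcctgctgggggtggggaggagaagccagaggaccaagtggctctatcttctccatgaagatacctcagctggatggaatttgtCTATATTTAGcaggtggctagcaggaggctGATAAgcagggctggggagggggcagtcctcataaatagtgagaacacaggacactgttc

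Motifs were searched on both strands of the whole windows of 300 bases, which run on for 50 bases past the start. The CArG box, to which serum response factor binds, was in the windows of Actc1, at -47 to -38 from the start site, and Myl7, at -61 to -52. These were 2 of 11 member windows, or 18.2%, against 1.63% of all 32851 windows (Tnnt2 and Csrp3 have 2 windows each). The MEF2 box, bound by MEF2 factors of muscle, was in the Mybpc3 window alone, at -90 to -81, which is 9.09% of member windows against 3.19% of all windows. GATAA, the core bound by GATA factors, was in the windows of Tnnt2, Tnni3, Nppa, Myl7 and Mybpc3, 45.5% of member windows against 25.4% of all windows. The short motifs were common everywhere. AAGTG, the core of NK2 homeobox factors, was in 54.5% of member windows and 46.4% of all windows, and the E box CANNTG was in 90.9% of member windows and 72.3% of all windows. TATAAA was in the windows of Myh6, Actc1 and Nppa, 27.3% of member windows against 13.6% of all windows. It lay at 2 to 7 for Myh6 and 34 to 39 for Actc1, past the start, and at -9 to -4 for Nppa. Positions count from the RefSeq start, and the start used in these lungs was not checked. AAGTG preceded by C is part of an E box, so these motifs overlap in part. A match describes the letters only.

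The genes of the thick filament were measured well above the floor on every array. Myh6, the alpha myosin heavy chain that drives contraction, read 5399, 3950 and 2340 units in HO lungs, 4985, 3792 and 3258 in HE lungs, and 2567, 3257 and 3341 in WT lungs, for numbers 1, 2 and 3. HO 1 and HE 1 were the highest of the 9 arrays, HO 3 was the lowest, and the genotypes overlapped. Myl4, the atrial essential light chain, read 8114, 5831 and 5084 units in HO lungs, 7830, 4798 and 4811 in HE lungs, and 5736, 6297 and 5571 in WT lungs. Its WT arrays lay close together, between the transgenic arrays of number 1 and most of the other transgenic arrays. Myl7, the atrial regulatory light chain, read 6810, 4054 and 4033 units in HO lungs, 7488, 3292 and 3345 in HE lungs, and 5017, 4918 and 4478 in WT lungs. All 3 arrays of number 1 were above the other 6 for Myl7, with HE 1 the highest. Mybpc3, the cardiac form of myosin-binding protein C, read 1323, 1191 and 1169 units in HO lungs, 1256, 1249 and 1109 in HE lungs, and 1278, 1106 and 1278 in WT lungs. It was nearly flat over the 9 arrays, and its genotypes overlapped.

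Among the genes of the thin filament, Actc1, the cardiac alpha actin, read 12690, 6484 and 7074 units in HO lungs, 11853, 6872 and 8235 in HE lungs, and 7672, 7893 and 10782 in WT lungs. WT 3 came next after the transgenic arrays of number 1, so the genotypes overlapped. Tnnt2, cardiac troponin T, which ties the troponin complex to tropomyosin, read 4708, 2764 and 2495 units in HO lungs, 4089, 2851 and 3093 in HE lungs, and 2417, 3968 and 3205 in WT lungs. Here number 1 held both the 2 highest arrays and the lowest, WT 1. Tnni3, cardiac troponin I, the inhibitory subunit, read 3325, 1882 and 2397 units in HO lungs, 3372, 1733 and 2212 in HE lungs, and 2358, 2490 and 2469 in WT lungs. The 3 WT arrays differed little, while the transgenic arrays spread to both sides of them.

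The other members act at the Z disc, on calcium uptake and as a hormone. Csrp3, the muscle LIM protein of the Z disc, read 2005, 1208 and 1772 units in HO lungs, 2082, 1240 and 1708 in HE lungs, and 1736, 1896 and 1759 in WT lungs. Its low arrays were HO 2 and HE 2. Sln, sarcolipin, a small inhibitor of the sarcoplasmic reticulum calcium pump, read 3089, 1260 and 1813 units in HO lungs, 3075, 1363 and 1555 in HE lungs, and 2171, 1875 and 1805 in WT lungs. As for Myl7, all 3 arrays of number 1 were above the other 6. Nppa, the precursor of atrial natriuretic peptide, was the member below the filter, which stood at 477 units. It read 702, 290 and 216 units in HO lungs, 677, 195 and 270 in HE lungs, and 722, 435 and 409 in WT lungs. Its 3 arrays of number 1 were close to each other and above the other 6.

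**Figure D1:**
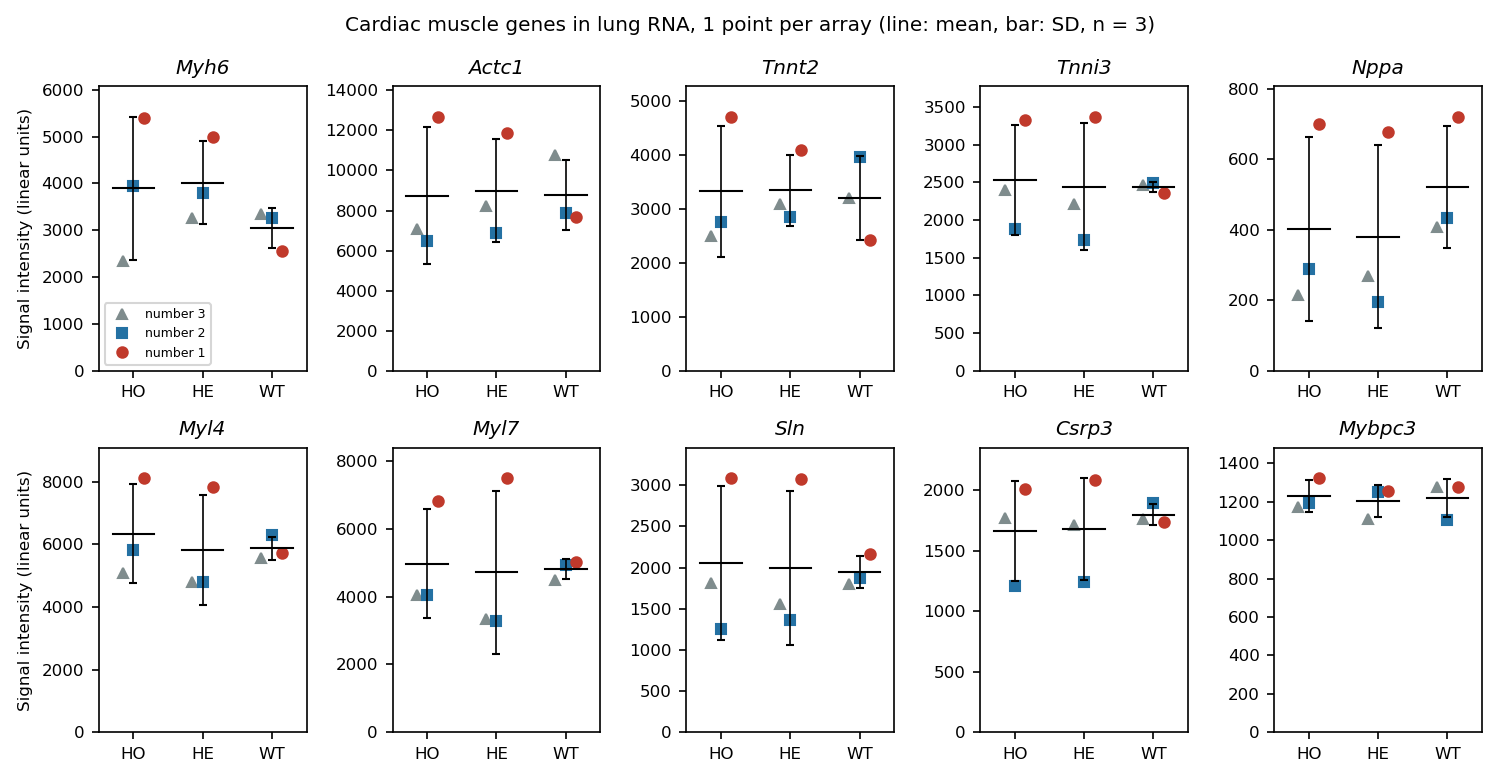
Signal intensity (linear units, axis from 0) of the 10 cardiac muscle genes on each array by genotype, with the replicate number as colour and shape; lines are means and bars SDs of 3 arrays. HO 1 and HE 1 are the 2 highest arrays for 8 genes, while Mybpc3 stays between 1106 and 1323 units.

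The members differed in how far they spread over the 9 arrays. The SD of log2 signal was 0.09 for Mybpc3, at the 3.53 percentile of all tested probe sets, whose median SD was 0.20. It was 0.46 for Sln, 0.41 for Myl7 and 0.40 for Myh6, at the 96.8, 95.1 and 94.4 percentiles. Nppa, which was under the filter, had an SD of 0.74.

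Myh6, Tnnt2, Myl4 and Sln each have 2 probe sets. The second Myh6 probe set (1417729_at) ran from 121 to 397 units, and its log2 signal did not follow the first (r = -0.01 over the 9 arrays). The second Myl4 probe set (1457126_at) ran from 187 to 397 units and the second Sln probe set (1420883_at) from 38.8 to 144.7 units. They ran against the first, with r = -0.58 for Myl4 and r = -0.59 for Sln. All 3 were under the filter. The second Tnnt2 probe set (1424967_x_at), whose suffix marks probes that can match other sequences, passed it at 2762 to 4446 units, with r = 0.32 to the first. Values below are from the probe set of highest mean for each gene.

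The series asks what added human CFTR does to the lung, and for the cardiac muscle genes tested no genotype difference passed the adjusted threshold. By limma with Benjamini-Hochberg adjustment over 13576 probe sets, 0 of 9 tested members were called between HO and WT lungs, where 0% of all probe sets were called. At an unadjusted p under 0.05 the count was also 0 of 9, against 4.49% of all probe sets in either direction. Between HE and WT lungs 0 of 9 members were called (0% of all probe sets) and 0 of 9 were under an unadjusted p of 0.05 (3.11% of all probe sets). HO against HE gave 0 of 9 by both rules, against 0% and 2.56% of all probe sets. Both transgenic groups together against WT also gave 0 of 9 by both rules, against 0% and 4.19% of all probe sets. No tested member had groups that did not overlap, which 8.88% of probe sets had between HO and WT. Of all probe sets, 7.7% did so between HE and WT, 6.66% between HO and HE, and 2.08% between both transgenic groups and WT. These comparisons share their WT arrays.

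The median log2 difference over the 10 members was 0.01 for HO minus WT and -0.05 for HE minus WT. Over all tested probe sets the medians were -0.005 and -0.007. Among tested members the difference farthest from 0 was that of Myh6. Its log2 difference was 0.28 ± 0.27 (SE) for HO minus WT and 0.38 ± 0.27 for HE minus WT, with 95% intervals from -0.31 to 0.87 and from -0.21 to 0.97. In these limma fits its adjusted p was 0.992 for HO minus WT and 0.9997 for HE minus WT. For Sln the HO minus WT difference was -0.02 ± 0.33, with an interval from -0.76 to 0.72, so a sizeable difference either way was within the error. Mybpc3 was the most precise member, at 0.01 ± 0.13 for HO minus WT and -0.02 ± 0.13 for HE minus WT, with intervals from -0.27 to 0.29 and from -0.29 to 0.26. Nppa averaged 402 ± 262 units in HO lungs, 381 ± 259 in HE lungs and 522 ± 173 in WT lungs (SD, n = 3 each), and was not tested.

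**Figure D2:**
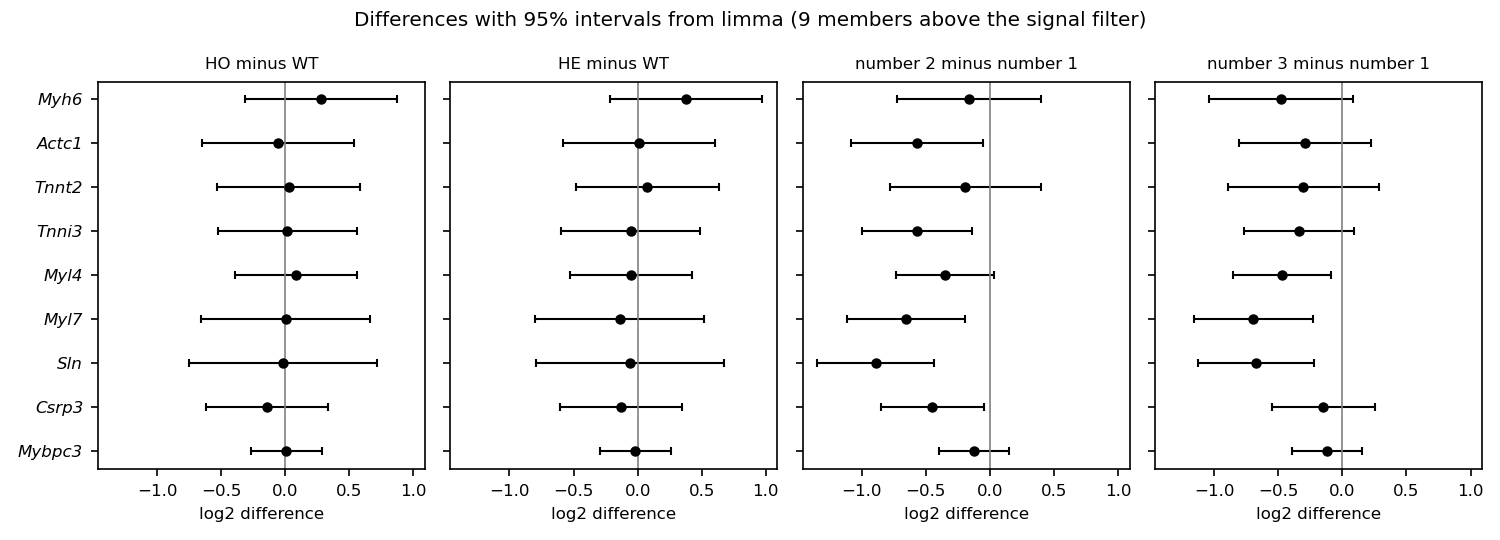
Log2 differences (points) with 95% intervals from limma for the 9 tested members, HO minus WT, HE minus WT, and numbers 2 and 3 minus number 1. Every genotype interval spans 0, while the intervals of 5 members for number 2 and of 3 members for number 3 lie below 0 before adjustment.

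For 8 of the 10 members the SD of log2 signal was larger in HO and in HE lungs than in WT lungs. The SD of Tnni3 was 731 units in HO lungs and 843 in HE lungs, against 71.1 in WT lungs (n = 3 each). For Myl7 the SD was 1597 units in HO lungs and 2407 in HE lungs, against 287 in WT lungs. Csrp3 showed 410 units in HO lungs and 422 in HE lungs, against 86.2 in WT lungs. The exceptions were Tnnt2 and Mybpc3. The SD of Tnnt2 was 1208 and 656 units in HO and HE lungs, against 775 in WT lungs, and that of Mybpc3 was 83.0 and 82.6 units, against 99.3. Without HO 1 and HE 1, with 2 arrays left in each transgenic group, the SD of log2 signal was larger than in WT lungs in both groups for 2 of 10 members (Tnni3 and Csrp3) and smaller in both for 4 (Actc1, Tnnt2, Nppa and Myl7). For Myl7 it was then 14.8 units in HO lungs and 37.6 in HE lungs, against 287 in WT lungs. The difference in spread was not tested. The share of all probe sets with these patterns was not counted, so the counts cannot be called particular to the members.

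The sign of the genotype difference was not the same in all replicate numbers. In number 1 the median log2 difference over the 10 members was 0.50 for HO minus WT, with 9 of 10 members above WT, and 0.51 for HE minus WT, with 8 of 10 above. Of all tested probe sets, 48.6% were above WT in HO 1 and 49.8% in HE 1. In number 2 the medians were -0.34 for HO minus WT and -0.47 for HE minus WT, with 2 of 10 members above WT in each, against 50.7% and 50.2% of all probe sets. In number 3 they were -0.14 for HO minus WT, with 2 of 10 above, and -0.21 for HE minus WT, with 0 of 10 above, against 48.5% and 46.6% of all probe sets. Each number holds 1 array per genotype, so these values have no spread of their own and the difference between numbers in the genotype effect was not tested. Leaving out HO 1 alone moved the HO minus WT median to -0.25, and leaving out HE 1 alone moved the HE minus WT median to -0.29. With both left out, which had to lower the transgenic values, 9 of 10 members were below WT in each comparison, and 0 were called. The share of all probe sets below WT on the remaining arrays was not counted.

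Averaged over the 3 genotypes, all 10 members had less signal in numbers 2 and 3 than in number 1, though none passed the adjusted threshold. The WT arrays as a set hardly differed by number. Their mean over the members (log2 signal centred per gene) was 0.02, 0.05 and 0.03 for numbers 1, 2 and 3. At the second Tnnt2 probe set, which also passed the filter, number 2 minus number 1 was 0.17. With genotype in the limma model, the median log2 difference over the 10 members was -0.51 for number 2 minus number 1 and -0.41 for number 3 minus number 1. Over all tested probe sets it was -0.0009 and -0.0005, with 49.9% of them above 0 in either comparison. Left out one at a time, HO 1 brought the member medians nearest to 0, at -0.35 for number 2 and -0.23 for number 3, and WT 1 took them farthest, to -0.73 and -0.71. At an adjusted p under 0.05, 0 of 9 members were called in number 2 minus number 1, where 0.0295% of all probe sets (4) were called, and 0 of 9 in number 3 minus number 1, where 0% were called. At an unadjusted p under 0.05, 5 of 9 members were lower in number 2 (Actc1, Tnni3, Myl7, Sln and Csrp3), against 5.87% of all probe sets lower. In number 3, 3 of 9 were lower (Myl4, Myl7 and Sln), against 4.77% of all probe sets. Number 3 minus number 2 gave 0 of 9 after adjustment, against 0% of all probe sets, and 0 of 9 before it, against 8.61% in either direction. Its member median was -0.0053. Over the 3 numbers at once, the moderated F test gave 3 of 9 members an unadjusted p under 0.05 (Tnni3, Myl7 and Sln), against 12% of all probe sets, and 0 of 9 after adjustment, against 0.0147%.

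Sln had the lowest p of the members. Its log2 signal averaged 10.53 ± 0.30 in number 2 and 10.75 ± 0.13 in number 3, against 11.42 ± 0.29 in number 1 (SD, n = 3 each). The differences from number 1 were -0.89 ± 0.20 for number 2 and -0.67 ± 0.20 for number 3 (SE), with adjusted p of 0.256 and 0.294 by limma. Myl7 averaged 11.98 ± 0.29 in number 2 and 11.94 ± 0.21 in number 3, against 12.63 ± 0.30 in number 1. Its differences were -0.65 ± 0.20 and -0.69 ± 0.20 (SE), with adjusted p of 0.316 and 0.294. Sln and Myl7 were the tested members with no overlap between number 1 and the other numbers together, a pattern that 3.13% of all probe sets showed in that direction. Nppa, untested, averaged 8.18 ± 0.58 in number 2 and 8.17 ± 0.47 in number 3, against 9.45 ± 0.05 in number 1, and also did not overlap. Mybpc3 differed by -0.12 ± 0.12 (SE) from number 1 in both.

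By genotype, the values behind these differences were as follows. The member mean, which is the average over the 10 genes of log2 signal centred per gene, was 0.51 on HO 1, -0.26 on HO 2 and -0.26 on HO 3. It was 0.47 on HE 1, -0.36 on HE 2 and -0.21 on HE 3. On the WT arrays it was 0.02, 0.05 and 0.03 for numbers 1, 2 and 3. HO 1 and HE 1 were the 2 highest arrays for 8 of 10 members, all but Nppa and Mybpc3. That pattern was noticed after the values were seen, and 3.36% of all tested probe sets had it. Without these arrays, so with WT 1 as the only array of number 1, the median over the members was -0.06 for number 2 minus number 1 and 0.09 for number 3 minus number 1. The difference of number 2 from number 1 was then positive for Myh6, Actc1, Tnnt2 and Myl4, and negative for Tnni3, Nppa, Myl7, Sln, Csrp3 and Mybpc3. At an unadjusted p under 0.05, 0 of 9 tested members were then lower in number 2, against 3.15% of all probe sets, and 0 of 9 in number 3, against 2.74%. Sln differed by -0.35 ± 0.25 for number 2 and by -0.13 ± 0.25 for number 3 (SE), with limma adjusted p of 0.911 and 0.964.

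**Figure D3:**
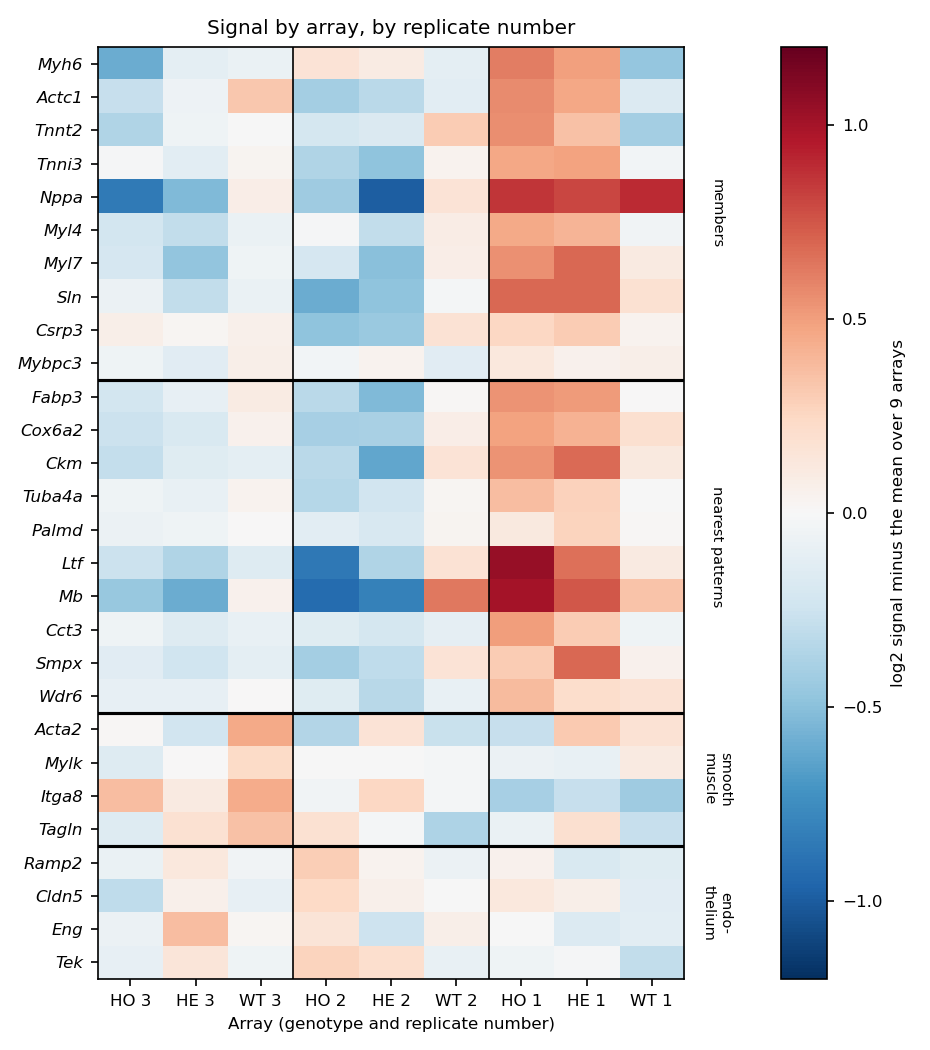
Log2 signal minus each gene's mean over 9 arrays, by array, with numbers 3, 2 and 1 in blocks; rows are the 10 members, the 10 genes of most similar pattern, and 4 genes each of smooth muscle and endothelium. HO 1 and HE 1 are the reddest columns for most members (member means 0.51 and 0.47), and the WT arrays have member means of 0.02 to 0.05.

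The members varied together from array to array. Among their 45 pairs the median Pearson's r of log2 signal over the 9 arrays was 0.71, from 0.10 for Csrp3 with Mybpc3 to 0.96 for Myl4 with Myl7. All 45 were above 0, and 35 were above 0.5, or 77.8% of pairs, against 9.91% of all pairs of tested probe sets. These arrays share genotypes, numbers and one scaling, so the correlations are given as a description. After genotype and number were taken out, the median was 0.77 and 34 pairs were above 0.5, or 75.6%, against 19.96% of all pairs. Genotype and number were taken out as separate terms, so part of the excess on HO 1 and HE 1 over WT 1 stays in. Without HO 1 and HE 1 the median fell to 0.28 over 7 arrays and 13 pairs were above 0.5, or 28.9%, against 13.8% of all pairs.

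Myl7 followed the mean of the other 9 members most closely (r = 0.94 over 9 arrays), then Myl4 (0.93), Tnni3 (0.93), Sln (0.92), Actc1 (0.87), Nppa (0.80), Tnnt2 (0.76) and Csrp3 (0.73). Myh6 (0.55) and Mybpc3 (0.48) followed it least. Over 7 arrays, without HO 1 and HE 1, r was 0.81 for Myl7, 0.74 for Tnni3, 0.73 for Nppa, 0.69 for Sln and 0.67 for Myl4. It was 0.04 for Mybpc3 and -0.41 for Myh6.

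**Figure D4:**
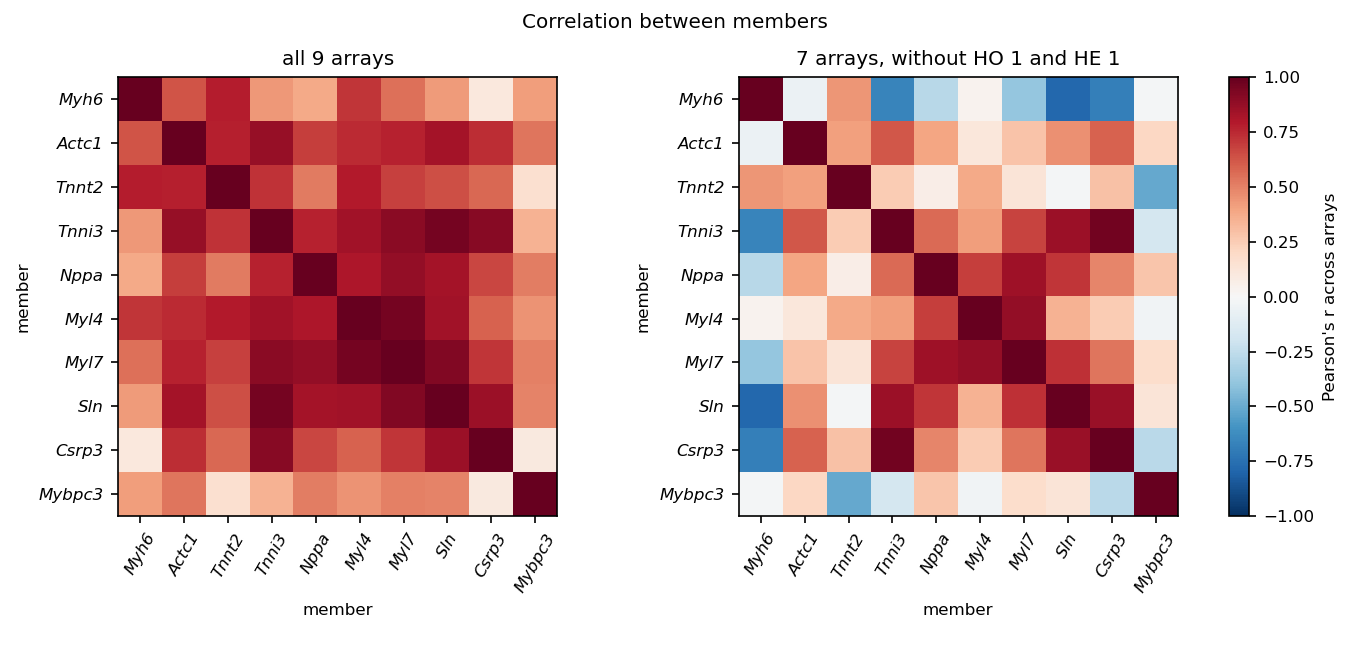
Pearson's r of log2 signal between each pair of members, over all 9 arrays (left) and over 7 arrays without HO 1 and HE 1 (right); colour runs from -1 to 1. All 45 pairs are above 0 on the left, and the Myh6 row turns mostly negative on the right, down to -0.78 with Sln.

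Myh6, the defining motor of mouse heart muscle, was set against each of the other 9 members. Over 9 arrays its r was highest with Tnnt2, at 0.78 (exact permutation p = 0.0130, adjusted over the 9 relations 0.117), with Spearman's rho of 0.67 (exact permutation p = 0.0589, adjusted 0.530). With Myl4 r was 0.71 (exact permutation p = 0.0309, adjusted 0.139), with rho of 0.50 (exact permutation p = 0.178, adjusted 0.645). The other 7 had r between 0.10 for Csrp3 and 0.63 for Actc1, and 0 of 9 relations passed the adjusted threshold. The arrays farthest from the median of Myh6 were HO 1 and HE 1. Without them r turned negative for 7 of the 9 members, at -0.78 with Sln (exact permutation p = 0.0387, adjusted 0.267). It stayed above 0 with Tnnt2 (0.44) and Myl4 (0.03). HO 1 and HE 1 were the highest arrays for Myh6, so leaving them out also narrowed its range. They were picked on the values of Myh6 itself. The permutations exchanged all arrays freely, although arrays share genotypes and replicate numbers, so these p-values are given as a description. With all 9 arrays and with genotype and number taken out, r of Myh6 was above 0 with all 9 members, from 0.30 with Csrp3 to 0.95 with Actc1. Part of the excess on HO 1 and HE 1 stays in these values too. A replicate number holds 3 arrays, too few for an r within it.

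The genes most like the members in pattern were ranked by r with the member mean over 9 arrays. They were Fabp3, the heart fatty acid-binding protein (0.98), Cox6a2, a muscle subunit of cytochrome oxidase (0.97), Ckm, muscle creatine kinase (0.96), Tuba4a, an alpha tubulin (0.93), Palmd, palmdelphin (0.93), Ltf, lactotransferrin (0.93), Mb, myoglobin (0.92), Cct3, a chaperonin subunit (0.91), Smpx, a small muscle protein (0.91), and Wdr6 (0.91). Of these 10, 5 stand in the muscle lists used here. Among all 13576 tested probe sets the median r was -0.01, the 99th percentile 0.78, and 17 (0.125%) were above 0.9. Over 7 arrays, without HO 1 and HE 1, the 10 had r from 0.57 (Cct3) to 0.96 (Cox6a2). Among the muscle genes of these 10, Mb had the widest swing, with 2307, 609 and 841 units in HO lungs, 1934, 658 and 765 in HE lungs, and 1457, 1789 and 1197 in WT lungs. For Mb, HO 1 and HE 1 were the highest arrays, and HO 2 and HE 2 the lowest.

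Other genes of heart muscle were read from lists. In muscle energy metabolism, 11 of 12 genes were on the array and 10 passed the filter, with a median r of 0.86 with the member mean, and 0.60 without HO 1 and HE 1. Of these 10, 8 were lower at an unadjusted p under 0.05 in number 2 than in number 1, and 8 were lower in number 3, against 5.87% and 4.77% of all probe sets. The list medians were -0.67 and -0.46 (log2 difference), and 0 passed the adjusted threshold. Without HO 1 and HE 1 the medians were -0.10 and -0.08, with 2 and 1 genes lower at an unadjusted p under 0.05, against 3.15% and 2.74% of all probe sets. Fabp3 differed by -0.63 ± 0.20 in number 2 and by -0.43 ± 0.20 in number 3, and Mb by -1.06 ± 0.34 and -1.03 ± 0.34 (log2 difference from number 1, SE). Of the other sarcomere and Z disc genes, 11 of 17 on the array passed, with a median r of 0.71, and 0.57 without HO 1 and HE 1. Of those, 10 had a difference below 0 in number 2 and 10 in number 3, where 49.9% of all probe sets were above 0 in either comparison. Without HO 1 and HE 1 these counts were 3 and 1, against 6870 and 6893 of all 13576 probe sets below 0. With HO 1 and HE 1 kept, Smpx alone was lower at an unadjusted p under 0.05 in each number (1 of 11, against 5.87% and 4.77% of all probe sets). Nebl, nebulette of the cardiac Z disc, lay on the other side, with the largest differences of its list and r = -0.67 with the member mean. It read 601, 1051 and 2441 units in HO lungs, 1014, 1642 and 1463 in HE lungs, and 691, 1095 and 1623 in WT lungs. Its log2 differences from number 1 were 0.72 ± 0.25 for number 2 and 1.26 ± 0.25 for number 3 (SE), with limma adjusted p of 0.347 and 0.197. Of the genes of calcium handling and excitation, 8 of 15 passed, with a median r of 0.55, and 0.44 without HO 1 and HE 1. Pln, phospholamban, a regulator of the same calcium pump as sarcolipin, had an r of 0.84, and Jph2, a junctional protein, an r of -0.48. Without HO 1 and HE 1 these were 0.43 and 0.13.

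Of the cardiac transcription factors, 8 of 15 were above the filter, with a median r of -0.16. They ran from Tbx3 (r = -0.51) to Tbx5 (0.61), with Gata6 at 0.06 and Srf, serum response factor, at 0.50. Without HO 1 and HE 1, r was 0.74 for Tbx5 and 0.69 for Srf. Tbx5, a factor of heart and lung development, differed from number 1 by -0.75 ± 0.22 in number 2 and by -0.29 ± 0.22 in number 3 (log2, SE), with limma adjusted p of 0.293 and 0.659. Several of these factors are also made by other lung cells. Of the ventricular list, 3 of 6 passed. Myh7, the beta myosin heavy chain, read 1309, 1121 and 1228 units in HO lungs, 1505, 1098 and 1087 in HE lungs, and 1630, 1336 and 1475 in WT lungs, with r = 0.62, and 0.85 without HO 1 and HE 1. Myl2, the ventricular light chain, was under the filter on average, at 84.7 to 239 units in HO lungs, 26.6 to 182 in HE lungs and 143 to 272 in WT lungs. No genotype comparison called a gene of these lists after adjustment. All 3 tested ventricular genes were below WT in HO and in HE lungs, with a median log2 difference of -0.28 in each. Of all probe sets, 48.8% and 47.8% were above 0. Both transgenic groups together were lower at an unadjusted p under 0.05 for 1 of 3 ventricular genes (Nppb), against 2.55% of all probe sets. For Myh7 the HO arrays lay below the WT arrays, where 8.88% of all probe sets had no overlap in either direction.

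**Figure D5:**
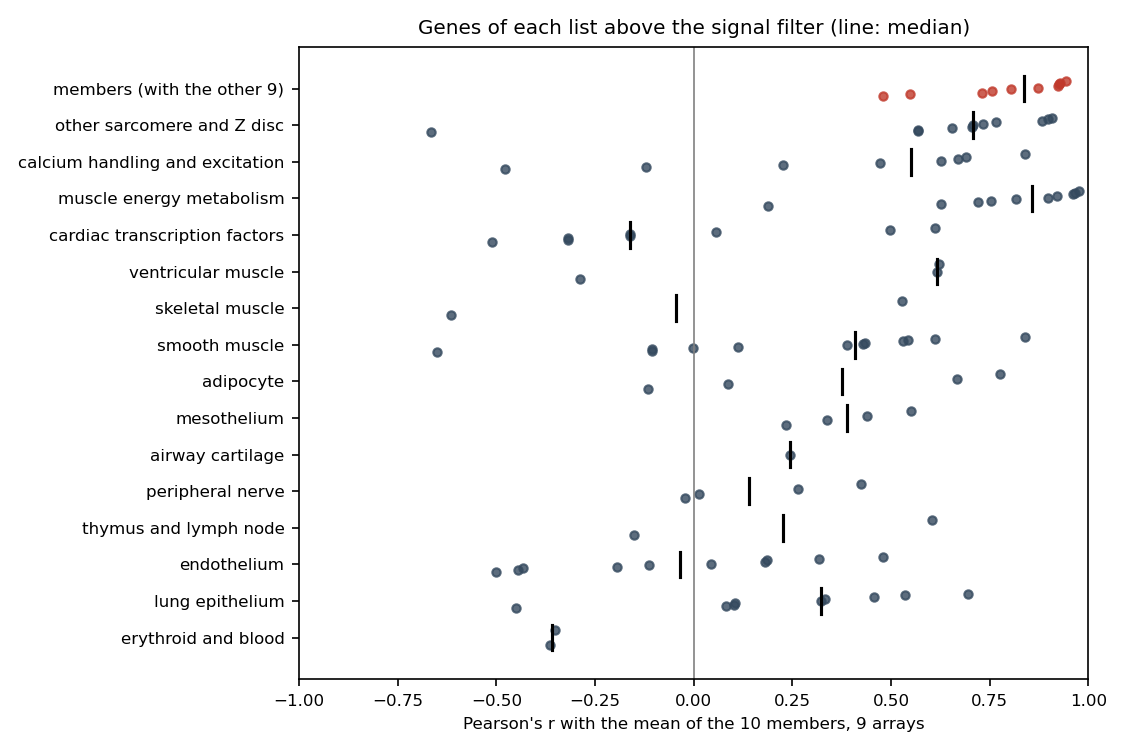
Pearson's r with the mean of the 10 members over 9 arrays, 1 point per gene above the filter; the members, in red at the top, are set against the mean of the other 9, and black lines are medians. Energy metabolism (median 0.86) and other sarcomere genes (0.71) lie to the right, and endothelium (-0.03) and cardiac transcription factors (-0.16) near the centre or left of it.

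Markers of other tissues were read beside these results. Of 19 skeletal muscle genes on the array, 2 passed the filter (Casq1 and Atp2a1), and Tnnc2, the fast skeletal troponin C, was at or under the floor on all 9 arrays. The summed signal of the skeletal list ran from 2851 to 3226 units in number 2 and from 2721 to 3455 in number 3, against 2976 to 3513 in number 1. Of 13 smooth muscle genes, 12 passed, with a median r of 0.41 with the member mean, and 0.32 without HO 1 and HE 1. The highest was Pln, which is also on the calcium list, and Acta2, smooth muscle actin, had r = 0.11. The summed smooth muscle signal ran from 38422 to 43875 units in number 2 and from 42411 to 55209 in number 3, against 41152 to 46320 in number 1.

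Adipocyte and mesothelial markers also had their highest sums in number 1. Of 9 adipocyte genes on the array 4 passed. The summed signal of all 9 ran from 3307 to 4310 units in number 2 and from 5195 to 5463 in number 3. In number 1 it ran from 5421 to 6964, where WT 1 had the 5421. Adipoq, the fat cell hormone adiponectin, read 1194, 103 and 691 units in HO lungs, 858, 205 and 710 in HE lungs, and 548, 502 and 630 in WT lungs. HO 1 and HE 1 were the highest arrays for Adipoq, as for 8 members, and its r with the member mean was 0.67. Fabp4, the fat cell fatty acid-binding protein, had an r of 0.78. Without HO 1 and HE 1 these were 0.50 and 0.55. Lipe and Retn, which also passed, had r of -0.11 and 0.09, and of -0.50 and 0.31 without HO 1 and HE 1. The median r of the adipocyte list was 0.38, and 0.40 without those arrays. Of 5 mesothelial genes 4 passed, with a median r of 0.39 (0.08 without HO 1 and HE 1). The summed signal of all 5 ran from 13029 to 14447 units in number 2 and from 10204 to 15112 in number 3. In number 1 it ran from 15506 to 19866, where WT 1 was the highest. None of the genes on either list was at or under the floor on all 9 arrays, and their part in the members' values was not tested. The endothelial list (10 of 10 passed, median r -0.03) summed to 100773 to 124141 units in number 2 and 101476 to 117720 in number 3, against 103158 to 112131 in number 1.

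All 9 genes of the lung epithelium list on the array passed, with a median r of 0.32, and 0.21 without HO 1 and HE 1. Foxj1, the factor of ciliated cells, read 2298, 708 and 1359 units in HO lungs, 2165, 1398 and 900 in HE lungs, and 1843, 912 and 1610 in WT lungs. As for 8 members, HO 1 and HE 1 were its highest arrays. Its r with the member mean was 0.70, and 0.28 without HO 1 and HE 1. Its log2 differences from number 1 were -1.11 ± 0.28 for number 2 and -0.74 ± 0.28 for number 3 (SE), with limma adjusted p of 0.271 and 0.376, and its part in the members' values was not tested. The summed signal of the list ran from 244408 to 284793 units in number 2 and from 227691 to 278278 in number 3, against 272557 to 296641 in number 1. In the other lists the median r was 0.14 for peripheral nerve (4 of 9 passed), 0.23 for thymus and lymph node (2 of 8), 0.25 for airway cartilage (1 of 9) and -0.36 for blood (2 of 4).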

How the data were processed

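RNA of whole lung was biotin-labelled and read on Affymetrix MOE_430A arrays, per the labels, which also gave the groups through the sample titles. The authors deposited linear intensities, 1 for each of 22690 probe sets on every array. Their trimmed mean, without 2% of values at either end, was 1500 on each array, so the authors had scaled the arrays to it; which program combined the probes is not stated in the labels or the file. Precision is set by the number of arrays.

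Values under the 5th percentile (25.5) were set to it before taking log2. After removal of 64 control probe sets, those averaging less than 8.90 on the log2 scale (the 40th percentile) were dropped, and 13576 were tested. limma 3.58.1 in R 4.3.3 fitted genotype means over all 9 arrays (6 residual degrees of freedom) and, for replicate numbers, genotype plus number (4 residual degrees of freedom), with Benjamini-Hochberg adjustment at 0.05. The functions were tested on simulated data. Correlations of Myh6 used two-sided exact permutation tests.

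Of the probe sets, 20380 had a single symbol in the platform annotation, 691 several and 1555 none. Each gene is shown at its probe set of highest mean. The members and lists were chosen with earlier results of these data known. Named genes were all member probe sets, up to 4 genes of highest signal per list, Sftpc, and the 10 genes nearest to the member mean in pattern. Tnnc2, Nebl, Tbx5, Srf and Foxj1 were named after their values were seen.

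Deviations from the genotype means were correlated between arrays. Same-numbered arrays of HO and WT gave 0.19, 0.14 and 0.28, and differently numbered ones -0.18 to -0.03. For HE with WT the values were 0.30, 0.05 and 0.04, against -0.17 to 0.13 between different numbers. For HO with HE they were 0.16, 0.15 and 0.03, against -0.21 to 0.06. All same-number correlations were above 0, but most were weak. The main genotype fits did not use the numbers. Alternative settings covered the normalization (quantile, median centring), the filter (none, 60th percentile), the floor (none, 20th percentile), a replicate block, a trended robust eBayes, only the arrays compared, HO 2 counted as HE, other probe sets and each array left out. Leaving out HO 1 and HE 1 together was chosen after seeing the data.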

Additional observations from a re-analysis of the deposited data

Results flagged for a closer look

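Among the 6 transgenic arrays, the second Tnnt2 probe set (1424967_x_at) had 1 array far above the others: HE 2, at 4446 units, was separated from its nearest neighbour, HE 1 at 3301 units, by 0.626 of the whole range of these 6 arrays on the log2 scale (Dixon's critical value is 0.625). The first Tnnt2 probe set did not show this, with HE 2 at 2851 units. Chance alone flags about 1 in 20 groups.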

How the results depend on the processing

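Of 796 alternative values for the members, 710 had an adjusted p, of which the lowest was 0.130 (limma), and the other 86 were of probe sets under the filter and not tested. Every sign below is therefore of an uncalled or untested difference. Of the 796 values, 723 kept their direction. With the replicate block, 0 members were called between HO and WT, with the Myh6 adjusted p at 0.899 by limma, and the block changed no other genotype call. Values are log2 differences. Under quantile normalization, HO minus WT was -0.032 for Myl7 and HE minus WT was -0.026 for Actc1. Under median centring, HO minus WT was 0.034 for Sln and HE minus WT was 0.020 for Mybpc3. With HO 2 counted as HE, HO minus WT was 0.13 for Actc1, 0.28 for Sln and 0.070 for Csrp3, and HE minus WT was -0.095 for Actc1. With HO 1 and HE 1 left out, HO minus WT was -0.25 for Tnnt2, -0.20 for Tnni3, -0.11 for Myl4, -0.25 for Myl7 and -0.045 for Mybpc3, and HE minus WT was -0.21 for Actc1 and -0.077 for Tnnt2. Number 2 minus number 1 was then 0.52 for Myh6, 0.13 for Actc1, 0.62 for Tnnt2 and 0.11 for Myl4, with a member median of -0.059. Number 3 minus number 1 was 0.21 for Myh6, 0.41 for Actc1, 0.50 for Tnnt2, 0.19 for Tnni3 and 0.22 for Csrp3, with a member median of 0.086. Without the same arrays, r with Myh6 was -0.059 for Actc1, -0.66 for Tnni3, -0.28 for Nppa, -0.39 for Myl7, -0.78 for Sln, -0.68 for Csrp3 and -0.016 for Mybpc3.

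The other probe sets gave HO minus WT of -0.44 for Myh6, -0.049 for Tnnt2, -0.062 for Myl4 and 0.44 for Sln, and HE minus WT of 0.50 for Myl4 and 1.16 for Sln. For number 2 minus number 1 they gave 0.18 for Myh6, 0.17 for Tnnt2, 0.38 for Myl4 and 0.55 for Sln, and for number 3 minus number 1 they gave 0.57 for Myh6, 0.50 for Myl4 and 0.22 for Sln. With 1 array left out at a time, HO minus WT ran from -0.36 to 0.13 for Actc1, -0.25 to 0.20 for Tnnt2, -0.20 to 0.21 for Tnni3, -0.11 to 0.23 for Myl4, -0.25 to 0.13 for Myl7, -0.36 to 0.28 for Sln, -0.30 to 0.070 for Csrp3 and -0.060 to 0.044 for Mybpc3. HE minus WT ran from -0.21 to 0.19 for Actc1, -0.11 to 0.25 for Tnnt2, -0.32 to 0.16 for Tnni3, -0.29 to 0.067 for Myl4, -0.53 to 0.061 for Myl7, -0.42 to 0.17 for Sln, -0.30 to 0.071 for Csrp3 and -0.087 to 0.041 for Mybpc3. Number 2 minus number 1 ran from -0.51 to 0.085 for Myh6 and from -0.60 to 0.11 for Tnnt2. The cause of the reversals was not tested.

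Over all probe sets, number 2 minus number 1 called 4, and 0 to 6 with 1 array left out. It called 0 with no filter, 9 with a trended robust eBayes, 0 with only the arrays compared, 0 with HO 2 counted as HE and 1 without HO 1 and HE 1. Number 3 minus number 1 called 3 with the trended robust eBayes and 1 without HO 1 and HE 1. With no filter, HE minus WT called 2 and HO minus HE called 2. With 1 array left out, HO minus WT, HE minus WT, both transgenic groups minus WT and number 3 minus number 1 each called 0 to 1.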
